A study of Mus musculus with 2 samples.

Results

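The miR-290 cluster is a group of miRNA hairpins on mouse chromosome 7 that is read from the plus strand and processed into a 5p and a 3p miRNA per hairpin. Its members here were the 7 hairpins Mir290a, Mir291a, Mir292, Mir291b, Mir293, Mir294 and Mir295, of 1174 GENCODE miRNA hairpins used, and the tags were those that matched 1 of the 7 hairpins without mismatch, 400 of 1766298 distinct tags. J1 mouse ES cells, an established line adapted to gelatin and grown with LIF and serum replacement, had been treated for 24 h with 1 mM AICAR, which enters cells and activates the energy-sensing kinase AMPK, or with the same volume of its solvent DMSO (0 mM AICAR), and 1 small RNA library was sequenced from each (with AICAR and with DMSO below). For its real-time PCR cultures the paper names a medium with serum and LIF. The control library is titled J1_U, whereas its source and treatment labels give DMSO, which were followed. The deposited values are read counts of distinct tags, which sum to 18870345 with DMSO and 21091226 with AICAR, the clean reads. With 1 library per condition no spread between cultures could be measured, so no test was made, and each 95% interval below covers counting error in these libraries only, since reads after PCR without molecular identifiers are not independent molecules.

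A miRNA hairpin is cut at its base by Drosha and at its loop by Dicer, which leaves a duplex of the 5p and the 3p strand, and usually 1 strand is kept in Argonaute. The bases at positions 2 to 8 of the kept strand, the seed, pair with target mRNAs, so a 5′ end that moves by a single base gives a strand with another seed, whereas a moved 3′ end leaves the seed as it was. The miR-290 cluster is an abundant miRNA locus of mouse ES cells, and its 3p strands with the AAGUGC seed are known for speeding the passage from G1 to S phase and for helping reprogramming.

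The mature sequences of 13 of the 14 arms matched a RefSeq entry (GRCm38.p6), and they are shown 5′ to 3′ with the seed in capitals because the shared seeds, and the position of the same motif within each 3p strand, carry the results below. No entry was matched for miR-292-3p. All lie on the plus strand, and the 5p strands with the seed core CUCAAA come first:
miR-290a-5p, chr7:3218639-3218660: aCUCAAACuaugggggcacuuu
miR-292-5p, chr7:3219200-3219221: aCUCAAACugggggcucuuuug
miR-293-5p, chr7:3220356-3220377: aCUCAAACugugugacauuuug
miR-294-5p, chr7:3220655-3220676: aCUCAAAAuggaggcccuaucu
miR-295-5p, chr7:3220779-3220800: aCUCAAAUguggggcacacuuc
The 5p strands of the miR-291 pair have the core AUCAAA:
miR-291a-5p, chr7:3218932-3218953: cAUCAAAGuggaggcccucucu
miR-291b-5p, chr7:3219494-3219515: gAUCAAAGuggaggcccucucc
The 3p strands with AAGUGC at bases 2 to 7 are these:
miR-290a-3p, chr7:3218674-3218697: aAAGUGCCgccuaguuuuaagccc
miR-291a-3p, chr7:3218968-3218989: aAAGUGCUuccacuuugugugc
miR-291b-3p, chr7:3219529-3219550: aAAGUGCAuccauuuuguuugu
miR-294-3p, chr7:3220691-3220712: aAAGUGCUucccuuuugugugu
miR-295-3p, chr7:3220815-3220837: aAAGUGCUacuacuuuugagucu
The 3p strand of miR-293 begins further into the same motif and has GUGCCG there:
miR-293-3p, chr7:3220390-3220411: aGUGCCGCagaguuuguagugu

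The 7 hairpins span chr7:3218626-3220841. No other annotated gene overlaps them on the plus strand. On the minus strand, annotated exon sequence of Nlrp12 overlaps 6 hairpins and not Mir290a. The antisense entries Mir290b and Mir292b lie opposite Mir290a and Mir292. Tags of the opposite strand were rare, with 11 reads with DMSO and 19 with AICAR, against 629277 and 1219669 reads of the cluster itself. The cluster made up 28.9% of the DMSO hairpin reads (95% Wilson interval 28.8 to 28.9%) and 36.8% of the AICAR hairpin reads (36.7 to 36.8%). Only 5 tags matched more than 1 hairpin, all shared by Mir291a and Mir291b and with 36 and 46 reads, and none matched a hairpin outside the cluster.

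The cluster was led by 2 arms of different hairpins in both libraries. The reference tag of an arm is its most read tag, summed over the libraries, and a tag was counted for the arm if its start was at most 2 nt and its end at most 4 nt away. miR-293-3p had a level of 11544 RPM (reads scaled to 1000000 clean reads) with DMSO and 19197 RPM with AICAR, which placed it first among 1145 arms in each. miR-290a-5p followed with 10961 and 18554 RPM and was second in each. The first held 34.6% and 33.2% of the cluster reads and the second 32.9% and 32.1%, so the other 12 arms shared the remaining reads, and neither leading arm has AAGUGC at bases 2 to 7.

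Among the strands with the AAGUGC motif, miR-294-3p was the highest, with 2896 RPM with DMSO and 5028 RPM with AICAR (rank 9 and 7). miR-295-3p had 2237 and 3981 RPM, and miR-292-3p had 1355 and 2198 RPM. miR-291a-3p, which differs from miR-294-3p at 2 of the first 21 bases (19 identical), was far lower, with 481.5 and 1147 RPM. miR-291b-3p had 51.0 and 126 RPM, and miR-290a-3p was the lowest of the 14 arms with 18.02 and 23.2 RPM, or 340 and 490 reads. Strands with the same motif in the seed region were thus far apart in level within each library.

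The 5p strands other than miR-290a-5p lay closer together. miR-291a-5p had 1457 and 3664 RPM, at rank 19 with DMSO and rank 13 with AICAR. miR-293-5p had 741 and 895 RPM, miR-292-5p 596 and 1082 RPM. miR-294-5p had 393 and 760 RPM, and miR-295-5p 348 and 665 RPM. miR-291b-5p, identical to miR-291a-5p at 20 of 21 bases, had 237 and 477 RPM. In rank, 12 of the 14 arms stood higher with AICAR, and the leading miR-293-3p and miR-290a-5p kept their places. The share of all arms that rose in rank was not counted. Of the 20 most abundant of all arms, 5 and 6 were cluster arms.

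**Figure D1:**
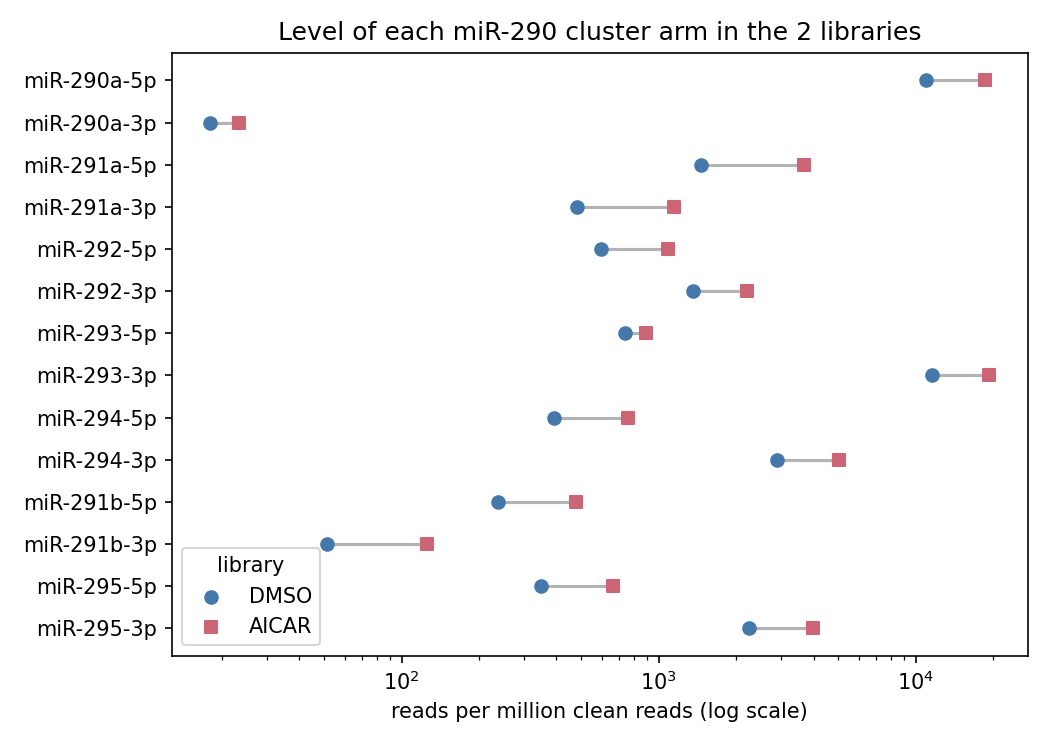
Level of each of the 14 cluster arms in RPM (log axis); circles are the DMSO library and squares the AICAR library, with 1 library each. The square lies right of the circle on every line, from miR-290a-3p at 18.02 and 23.2 RPM to miR-293-3p at 11544 and 19197 RPM.

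On the RPM scale each of the 14 arms was higher with AICAR, where 56.9% of the 508 arms with at least 1 RPM in a library were higher. The median ratio of AICAR to DMSO was 1.80 over the cluster arms and 1.10 over all arms tested. The study called miRNAs at a fold limit of 2 together with a p-value limit, and only the fold limit was used here. A ratio of at least 2 was reached by 4 of 14 arms, against 12.0% of all arms. All 4 came from the miR-291 pair: miR-291a-5p at 2.51 (2.48 to 2.55), miR-291b-3p at 2.46 (2.29 to 2.65), miR-291a-3p at 2.38 (2.33 to 2.44) and miR-291b-5p at 2.01 (1.94 to 2.08). The interval of miR-291b-5p includes 2.

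The other 10 arms had ratios from 1.21 to 1.94. The lowest were miR-293-5p at 1.21 (1.18 to 1.23) and miR-290a-3p at 1.29 (1.12 to 1.49), and the leading arms miR-293-3p and miR-290a-5p stood at 1.66 and 1.69. The less abundant 5p strands of Mir294 and Mir295, at 1.94 (1.88 to 1.99) and 1.91 (1.86 to 1.97), were above their 3p partners at 1.74 and 1.78. Arms of 1 hairpin therefore did not share 1 ratio, and Mir293 showed the widest gap between its arms, 1.21 and 1.66.

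The size of these ratios rests on the read total they are set against. Hairpin reads made up 11.6% of clean reads with DMSO and 15.7% with AICAR, and the hairpin reads outside the cluster were themselves 1.21 times as high in RPM. Scaled to hairpin reads instead of clean reads, 12 of 14 arms were higher with AICAR, against 31.1% of all arms, with a median ratio of 1.32 against 0.807. None of the 14 reached a ratio of 2 on that scale, against 4.72% of all arms. On it miR-293-5p was at 0.888 (0.869 to 0.908) and miR-290a-3p at 0.948 (0.824 to 1.09). The miR-291 pair was the highest on this scale too, with 1.85 for miR-291a-5p, 1.81 for miR-291b-3p, 1.75 for miR-291a-3p and 1.48 for miR-291b-5p.

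**Figure D2:**
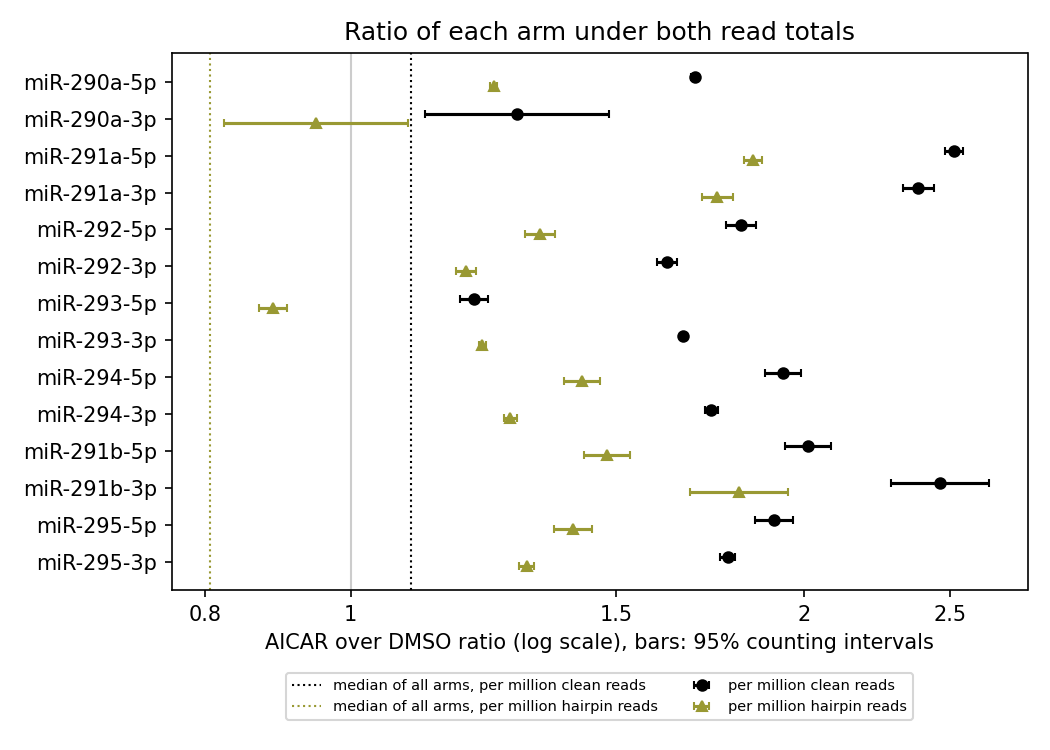
Ratio of the AICAR to the DMSO library for each arm (log axis), scaled to clean reads (circles) and to hairpin reads (triangles), with 95% exact counting intervals; dotted lines are the medians over all 508 arms tested, 1.10 and 0.807. The miR-291 arms lie furthest right on both scales, and miR-293-5p and miR-290a-3p lie left of 1 when scaled to hairpin reads.

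Shares of arms within a hairpin are not affected by the choice of read total. In both libraries 3 hairpins gave more reads from the 5p arm and 4 more from the 3p arm, and the leading arm of each hairpin was the same in both. Mir290a was almost wholly 5p, with 99.8% of its arm reads with DMSO and 99.9% with AICAR. Mir291a had 75.2% and 76.2% on the 5p arm, and Mir291b had 82.3% and 79.2%. Mir292 was the most even, with 30.5% and 33.0%. Mir295 had 13.5% and 14.3%, Mir294 had 11.9% and 13.1%, and Mir293 had 6.03% and 4.45%. These shares count exact matches only. With tags that carry 1 or 2 added 3′ bases counted too, the share of Mir291a was 66.6% with DMSO and 69.2% with AICAR. That of Mir292 was 38.7% and 41.4%, and the shares of the other hairpins moved less. Mir291a and Mir294, whose 3p strands are nearly the same, had most of their reads on opposite arms under either count.

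The 5p share was larger with AICAR for 5 of 7 hairpins, against 52.4% of 143 hairpins outside the cluster. Mir293 had the largest relative difference in the other direction, with an odds ratio of 5p to 3p reads of 0.726 (95% Woolf interval 0.710 to 0.743). For Mir291b the odds ratio was 0.817 (0.753 to 0.887), but with the reference tags alone its 5p share was larger with AICAR, at 63.7% with DMSO and 68.4% with AICAR. The other 5 ranged from 1.06 (1.03 to 1.09) for Mir291a to 1.31 (1.14 to 1.51) for Mir290a, whose 3p arm has few reads. All 7 intervals exclude 1, but the absolute differences, 0.0391 to 3.13 percentage points, were below the median absolute difference of the outside hairpins, 3.36 points. Over the 7 hairpins together, 44.2% of the arm reads were 5p with DMSO and 45.2% with AICAR.

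**Figure D3:**
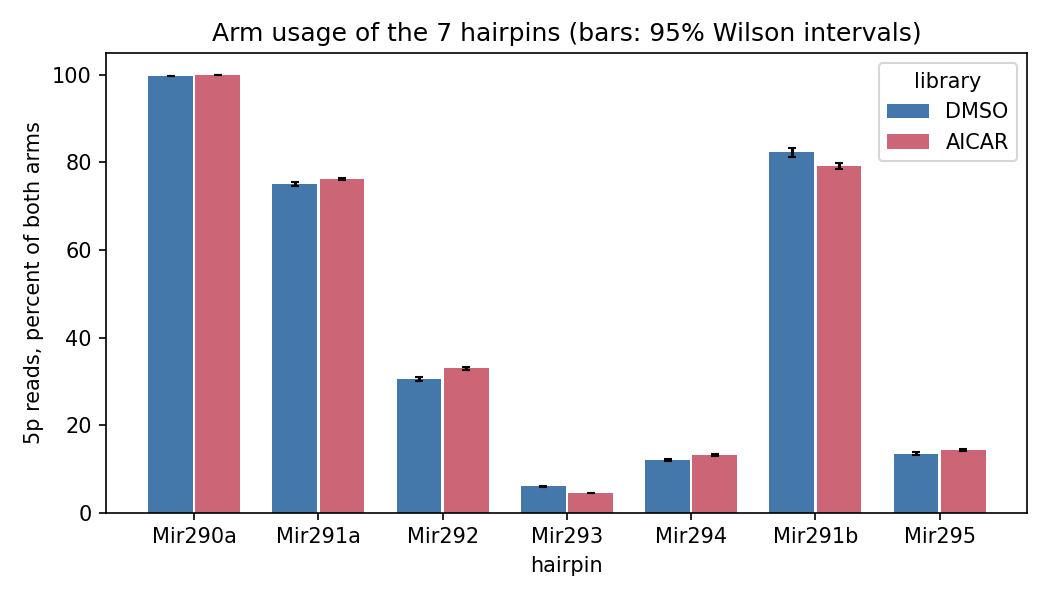
Share of 5p reads among the arm reads of each hairpin in percent, from 0, with DMSO (left bars) and the AICAR library (right bars), with 95% Wilson intervals. Mir290a, Mir291a and Mir291b stand above 50% and the other 4 below it in both libraries.

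The 5′ end was close to fixed on most arms. For 10 of the 14 arms at least 90% of the reads began at the most used base in both libraries. The leading 3p arm miR-293-3p was among the tightest, with 99.6% of its reads at 1 base in each library, and miR-290a-5p had 97.9% and 98.0%. The most used start was that of the RefSeq strand in 11 of 13 arms, and the exceptions were miR-290a-3p and miR-295-3p.

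The 4 arms with mixed starts were miR-292-3p, miR-295-3p, miR-290a-3p and miR-291b-5p. On 3 of them the mixture falls within the run of A bases before the GUGC motif, so that each start gives another register of the same motif as the seed. The principal tags of miR-295-3p are shown with the seed in capitals (T for U, as in the deposited tags), since their seeds differ by that register:
miR-295-3p from the RefSeq start, chr7:3220815-3220837: aAAGTGCTactacttttgagtct
miR-295-3p from 1 base downstream, chr7:3220816-3220837: aAGTGCTActacttttgagtct
The shorter tag, which has the seed AGTGCTA, had 22693 reads with DMSO and 39823 with AICAR. The longer tag had 14411 and 34402 reads. Counted over all 3′ ends, the RefSeq start held 38.7% of the arm with DMSO (38.3 to 39.2%) and 45.5% with AICAR (45.1 to 45.8%). Its RPM was 2.09 times as high with AICAR (2.05 to 2.13), against 1.59 times (1.56 to 1.61) for the start 1 base downstream. The strand of miR-295 with the same seed as miR-294-3p therefore had a higher ratio than the strand with the shifted seed.

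miR-292-3p was split almost evenly between neighbouring starts. The upstream start, with the seed AAGTGCC, held 50.3% of the reads with DMSO (49.7 to 50.9%) and 46.7% with AICAR (46.2 to 47.2%). The downstream start, with the seed AGTGCCG, held 49.5% and 53.1%, and its ratio was 1.74 (1.70 to 1.78) against 1.51 (1.47 to 1.54) for the upstream start. The difference between the libraries thus ran in the opposite direction from that of miR-295-3p, where the upstream start had the larger share with AICAR. On miR-290a-3p, 3 starts held 35.3%, 39.7% and 24.4% of the DMSO reads and 36.1%, 35.3% and 26.5% of the AICAR reads, from upstream to downstream, and with 340 and 490 reads the intervals of each overlapped.

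On miR-291b-5p the mixed start lay 2 bases upstream, outside the motif run, and changes the seed from ATCAAAG to CGATCAA. The principal tags are shown with the seed in capitals because the 2 starts had different ratios:
miR-291b-5p from the RefSeq start, chr7:3219494-3219515: gATCAAAGtggaggccctctcc
miR-291b-5p from 2 bases upstream, chr7:3219492-3219513: tCGATCAAagtggaggccctct
The upstream start held 1105 reads or 24.7% with DMSO (23.4 to 26.0%) and 1543 reads or 15.3% with AICAR (14.6 to 16.05%). Its ratio was 1.25 (1.16 to 1.35), whereas that of the RefSeq start was 2.27 (2.18 to 2.37). The full RefSeq tag had 1573 and 5504 reads, a ratio of 3.13 (2.96 to 3.31). The ratio of 2.01 given above for the arm is thus a mixture of tags that differed widely.

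Over the 14 arms, the share of reads away from the most used start was larger with AICAR for 5 and smaller for 9, and 37.6% of 279 outside arms with at least 100 reads in each library had a larger share. The intervals lay apart for 3 of the 5 and for 7 of the 9. The 3 were miR-295-3p, miR-294-5p (0.931% and 1.57%) and miR-295-5p (5.16% and 6.21%). The median absolute difference of the outside arms was 0.619 percentage points, which was exceeded by 9 of the 14 arms. Among them were miR-291b-5p (25.8% and 16.1% away from the most used start), miR-295-3p (39.1% and 45.7%), miR-290a-3p (60.3% and 64.7%) and miR-292-3p (50.5% and 46.9%). The other 5 were miR-291b-3p, miR-291a-3p, miR-291a-5p, miR-295-5p and miR-294-5p.

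**Figure D4:**
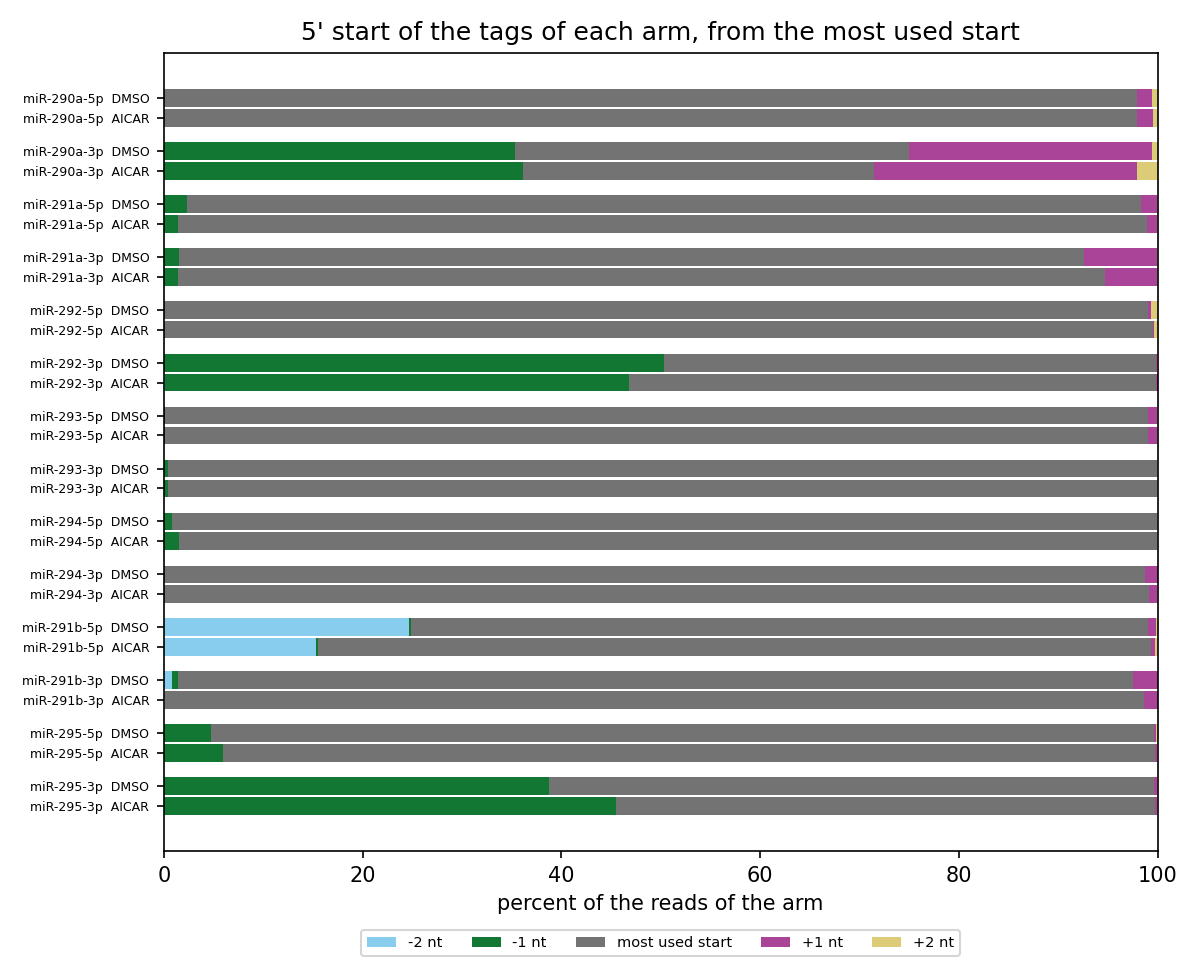
Share of the reads of each arm by 5′ start, in percent, with the DMSO library above the AICAR library; grey is the most used start and the colours are starts up to 2 nt upstream (negative) or downstream (positive). Most bars are nearly all grey, and miR-290a-3p, miR-292-3p, miR-291b-5p and miR-295-3p are mixed.

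On 10 of the 14 arms the most used 3′ end held a smaller share of the reads than the most used 5′ start in both libraries. On the other 4 arms, miR-290a-3p, miR-291a-3p, miR-292-3p and miR-295-3p, the 3′ end held the larger share. These shares count exact matches only. They leave out tags with added 3′ bases (below), which were 38.3% and 35.0% of the exact and extended reads of miR-291a-3p. miR-294-3p was nearly a single tag, and its 22-nt reference tag held 96.4% of the reads with DMSO and 97.4% with AICAR. miR-290a-5p was spread over 3 lengths within a run of T bases, shown here with the seed in capitals:
miR-290a-5p of 22 nt, chr7:3218639-3218660: aCTCAAACtatgggggcacttt
miR-290a-5p of 23 nt, chr7:3218639-3218661: aCTCAAACtatgggggcactttt
miR-290a-5p of 24 nt, chr7:3218639-3218662: aCTCAAACtatgggggcacttttt
The 23-nt tag held 42.6% of the reads with DMSO and 42.7% with AICAR. The 24-nt tag held 25.8% and 27.5%, and the 22-nt tag, which is the RefSeq strand, held 26.8% and 25.5%. Bases of the hairpin and bases added after cutting cannot be told apart within that run.

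The most abundant tag was the RefSeq strand in 7 of 13 arms. On miR-293-5p the 22-nt RefSeq strand was read once in each library, whereas the 21-nt tag without its last base held 95.04% and 94.4% of the reads. miR-291a-5p ended at the RefSeq base in 63.6% of its DMSO reads and 68.7% of its AICAR reads, and 1 base later in 19.3% and 20.9%. On miR-292-5p the 21-nt tag held 63.9% and 66.8%, and the 22-nt RefSeq strand 30.2% and 28.3%.

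Tags shorter than 21 nt were less frequent with AICAR. They were 4.11% of the cluster reads with DMSO and 2.15% with AICAR, against 11.7% and 4.78% of the other hairpin reads and 21.3% and 16.3% of all clean reads. The mean tag length was longer with AICAR for 12 of 14 arms, against 87.1% of the 279 outside arms, and the exceptions were miR-292-5p and miR-293-5p. The difference was largest for miR-290a-3p, at 22.2 and 22.4 nt, but its few reads gave wide counting standard errors of 0.0709 and 0.0535 nt. It was next for miR-291b-5p, at 21.5 and 21.6 nt, with standard errors of 0.0145 and 0.00797 nt. On miR-293-3p the 18-nt tag that lacks the last 4 bases had 9551 reads with DMSO and 7063 with AICAR, a ratio of 0.662 (0.642 to 0.682), while the full 22-nt tag had 179694 and 352477 reads, a ratio of 1.76 (1.75 to 1.77). Shorter tags were thus fewer with AICAR on the cluster and outside it alike. The part of tag length in the ratios above was checked only by leaving out tags under 21 nt, which gave a cluster ratio of 1.77 against 1.73.

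Tags that match a hairpin up to their last 1 or 2 bases carry bases that the hairpin does not encode. They are left out by the exact match and made up 5.57% of the exact and extended cluster reads with DMSO (5.51 to 5.62%) and 6.11% with AICAR (6.07 to 6.15%). Outside arms had 11.7% and 13.2%. Of the single added bases on cluster arms, A made up 62.4% and 62.7% and U 31.2% and 33.3%. On outside arms U made up 48.4% and 53.2%, against 42.0% and 40.6% for A. The cluster shares lean on miR-290a-5p, which held 37.5% and 33.0% of the added reads. That arm had a single added A in 4.37% and 4.58% of its reads and an added U in 0%. An added U cannot be told from its run of T bases, so the cluster and outside shares are not directly comparable.

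The share of extended reads was highest on 3 arms, which together held 33.7% of the added reads of the cluster with DMSO and 35.2% with AICAR. The abundant miR-290a-5p held a further 37.5% and 33.0%. miR-291a-3p was extended in 38.3% of its reads with DMSO and 35.0% with AICAR, mostly by a single U (27.8% and 23.1%). Its near twin miR-294-3p was extended in 1.13% and 1.46%. miR-292-5p was extended in 32.0% and 32.3%, by U in 13.6% and 15.5% and by A in 10.7% and 10.2%. miR-291b-5p was extended in 25.8% and 28.4%, by A in 12.0% and 11.6%, but its tag with a U in place of the last base is also 1 base away from miR-291a-5p. The leading arms miR-293-3p and miR-290a-5p had 1.73% and 1.97%, and 6.29% and 6.27%. The share was larger with AICAR for 10 of 14 arms, with intervals apart for 6, and smaller with intervals apart for 1, miR-291a-3p. Of the 279 outside arms, 76.0% had a larger share with AICAR.

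**Figure D5:**
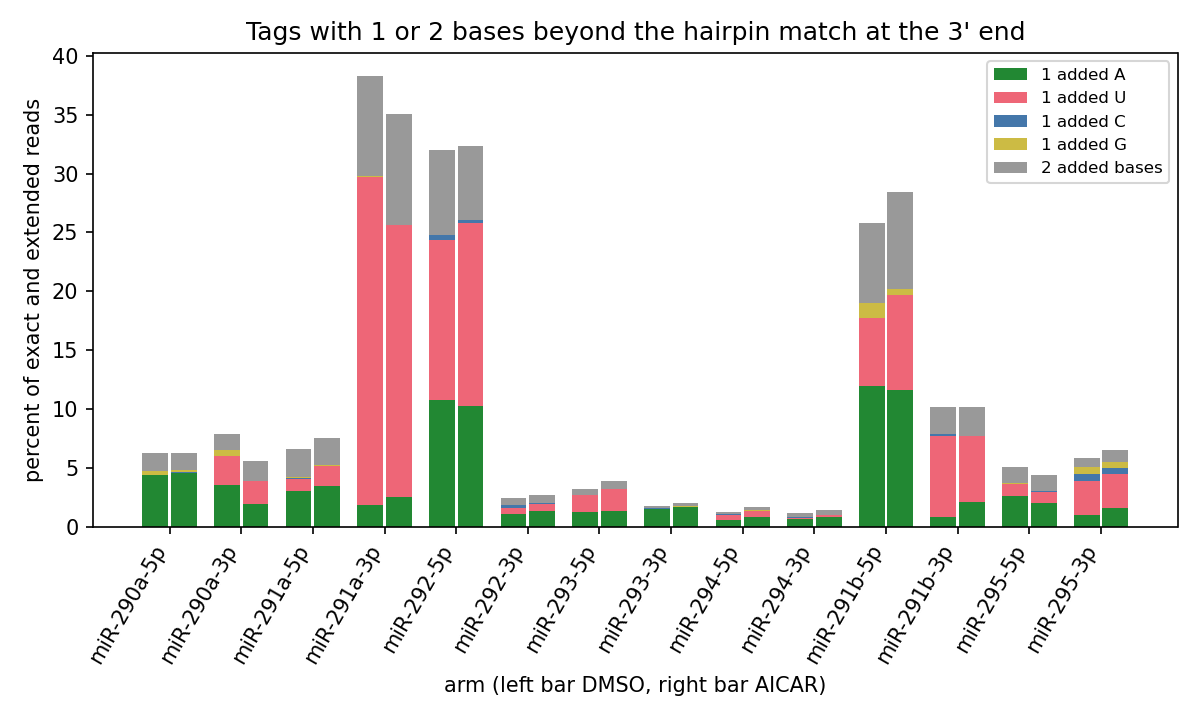
Share of tags with 1 or 2 bases beyond the hairpin match at the 3′ end, in percent of exact and extended reads, per arm, DMSO as left and AICAR as right bar; colours give a single added base and grey 2 added bases. miR-291a-3p, miR-292-5p and miR-291b-5p reach 25.8% to 38.3%, and the other 11 arms stay at 10.2% or less.

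A substitution was frequent inside miR-292-5p and was not seen at that level on any other cluster arm. The reference tag and the tag with C17T (reference base, position from 1 at the 5′ end, observed base) are shown with the seed and base 17 in capitals:
miR-292-5p reference tag, chr7:3219200-3219220: aCTCAAACtgggggctCtttt
miR-292-5p with C17T: aCTCAAACtgggggctTtttt
The reference tag had 7178 reads with DMSO and 15244 with AICAR. The substituted tag had 3703 and 8956 reads, which is 34.0% of both tags with DMSO (33.1 to 34.9%) and 37.0% with AICAR (36.4 to 37.6%). On the other 13 arms at most 0.481% of the tags with the first 16 bases of the reference tag had a given other base at position 17, and among 279 outside arms 2 had another base there in at least 10% of such tags in a library. Tags longer than the run of T bases also told the substitution from the lack of base 17: the former had 4406 and 10393 reads in tags that match it alone, the latter 446 and 850. The source of the T was not tested. Tags that match both had 1322 and 2465 reads. With all tags that match the substitution counted, these included and those that match only the lack of base 17 left out, the 5p share of Mir292 was 39.9% and 43.5%, and the ratio of miR-292-5p was 1.88 (1.85 to 1.92) in place of 1.82 (1.78 to 1.86).

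Summed by bases 2 to 7 of each tag, most cluster reads had one of a few seed cores. CTCAAA, carried by 5p strands of 5 hairpins, held 38.4% of the cluster arm reads with DMSO and 37.2% with AICAR. It was the most frequent core of all hairpin reads in both, with 11.1% and 13.7% of them. GTGCCG, from miR-293-3p, held 34.5% and 33.1% and was second. AAGTGC, the core of 3 of the 7 3p reference tags, held 14.7% with DMSO (14.6 to 14.8%) and 15.6% with AICAR (15.5 to 15.7%), which placed it at rank 6 and 5. ATCAAA, from the miR-291 pair, held 4.73% and 6.88%, with the highest ratio of these cores, 2.52 (2.49 to 2.56). The cores 1 base further into the motif, AGTGCT and AGTGCC, held 4.30% and 3.92%, and 2.15% and 2.16%. The cluster supplied at least 98.97% of all hairpin reads with each of these cores in both libraries.

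Few other arms share the AAGTGC core. miR-467a-1-5p had 26.2 and 57.0 RPM, and miR-467c-5p had 10.4 and 15.7 RPM. The miR-302 family, the other ES cell family with this seed, had few reads, with 46 and 51 reads of miR-302d-3p, 27 and 14 of miR-302b-3p, 26 and 11 of miR-302a-3p. The 5p strand miR-302a-5p had 147 and 28 reads. Of miR-302c-3p, whose core is AGTGCT, 3 reads were found with DMSO and 0 with AICAR, which allows up to 0.142 RPM (3 reads). The seed AAGTGCT of miR-294-3p was thus supplied almost wholly by the miR-290 cluster in both libraries.

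The list of seed relatives and ES cell miRNAs outside the cluster held 13 hairpins with 18 arms tested (Mir302a to Mir302d, Mir367, Mir17, Mir18, Mir20a, Mir20b, Mir93, Mir106a, Mir106b and Mir467a-1). Of these, 1 was at least 2-fold higher with AICAR, miR-467a-1-5p at 2.17, and 4 were at most 0.5 times as high, miR-302a-5p at 0.170, miR-302a-3p at 0.379, miR-302b-3p at 0.464 and miR-20b-3p at 0.461. Of all 508 arms, 61 or 12.0% were at least 2-fold higher and 51 or 10% were at most 0.5 times as high. The median ratio of the 18 listed arms was 1.00, against 1.10 over all arms and 1.80 over the cluster. miR-93-5p, the most abundant of them, had 372 and 669 RPM, and miR-17-5p of the miR-17 to miR-92 cluster had 116 and 142 RPM.

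The labelled cell type was set against marker miRNAs. The cluster itself, which marks mouse ES cells, was the source of the 2 most abundant arms in both libraries, while Mir302c and Mir367 were at 0 with AICAR. The 7 other ES cell hairpins listed (Mir302a to Mir302d, Mir367, Mir17 and Mir20a) summed to 278 and 297 RPM, a ratio of 1.07 (1.03 to 1.11), or 0.787 relative to hairpin reads, and 3 of their 7 arms tested were at most 0.5 times as high with AICAR. The 6 fibroblast hairpins summed to 209 and 208 RPM, with Mir214 at 0 in a library. Among their tested arms, 1 was at least 2-fold higher with AICAR, miR-145a-5p at 2.73. Another 1, miR-143-5p at 0.422, was at most 0.5 times as high. The 3 blood hairpins summed to 16.5 and 15.8 RPM, with Mir223 at 0 in a library. The 3 neural hairpins summed to 1255 and 1425 RPM, and the 3 muscle hairpins to 161 and 205 RPM. The let-7 hairpins, a mark of differentiated cells, summed to 9871 and 16101 RPM, a ratio of 1.63 that is near the cluster's 1.73. The liver miRNA Mir122 had 55 reads with DMSO and 536 with AICAR, or 2.91 and 25.4 RPM. The part of other cells or other RNA in the cluster's ratios was not tested.

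Drosha and Dicer leave duplexes with short 3′ overhangs, and the ends of the reference tags were placed on the predicted hairpin folds. Between 15 and 17 bases of the 5p reference tag paired with the 3p reference tag, and the 3′ overhangs were 2 nt at both ends in 5 of 7 hairpins. The exceptions were Mir291a, with 3 nt on the 3p strand, and Mir295, with 3 nt on the 5p strand. The most used 3p start lay 1 base downstream of the RefSeq start on Mir295, and also on Mir290a, whose overhangs were 2 nt. Predicted folding energies ran from -43.8 kcal/mol for Mir291a to -29.2 kcal/mol for Mir293. Reads outside the end limits of both arms were 0.106% and 0.0576% of the cluster reads.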

How the data were processed

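The authors isolated total RNA, selected small RNA by size, sequenced it, removed low-quality and contaminant reads and collapsed the clean reads. The deposited files hold the raw read count of each distinct tag with its length and sequence, without normalization or alignment. Per the labels the kit was Illumina TruSeq RNA Sample Prep, whereas the study's methods describe adaptor ligation to small RNA. The submitters' processing notes name mm9, but no coordinates of theirs were used, and positions are GENCODE vM21 (GRCm38). Tags of 18 to 44 nt were matched without mismatch to 1174 hairpins whose symbol starts with Mir. Arms followed the tag's midpoint, copies with the same reference tag counted as 1, and a tag fitting several miRNAs counted in full for each. All 14 arms were described, and other arms only where they share a seed core, lie in the lists or lead the ranks. Ratios have exact binomial, shares Wilson and odds ratios Woolf intervals (95%). Outside hairpins for arm usage had at least 100 reads and at least 10 on each arm in each library. Added bases were sought as 1 or 2 bases after an exact match. The steps were tested on simulated tags and counts. Members and lists were chosen with earlier results of these data known. Python 3.11.15, numpy 2.4.6, scipy 1.17.1, matplotlib 3.10.9, ViennaRNA 2.7.2 (RNAfold) and edgeR 4.0.16 (TMM factors only) were used. Alternatives were other read totals, other tag rules, length and count limits on tags and other filters.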

Additional observations from a re-analysis of the deposited data

Results flagged for a closer look

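Both flagged signals come from tags that the exact match to the hairpins leaves out. A signal was flagged only if its AICAR interval lay above that of the DMSO control library, so the direction of both follows from the rule. No replicate library bears on either. The tag of miR-292-5p with C17T was 37.0% of that tag and the reference tag with AICAR, against 34.0% with DMSO. Cluster tags with 1 or 2 added bases at the 3′ end were 6.11% with AICAR, against 5.57% with DMSO, and the same share of the outside arms was 13.2% against 11.7%.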

How the results depend on the processing

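The ratio of the whole cluster was 1.73 in RPM and stayed above 1 under each alternative run. It was 1.28 relative to hairpin reads, 1.44 relative to hairpin reads outside the cluster, 1.55 with TMM over all hairpin arms, 1.62 with median-ratio size factors, 1.77 without tags under 21 nt and 1.74 with added bases counted. The 4 arms at or above 2-fold became 0 relative to hairpin reads and 2 relative to hairpin reads outside the cluster, and 3 with TMM or median-ratio factors. Without tags under 21 nt, the AAGTGC share of the cluster was 15.9% with AICAR and 15.2% with DMSO. With the reference tag alone, 6 of 7 hairpins had a larger 5p share with AICAR, now also Mir291b. The background of 12.0% of arms at or above 2-fold was 8.46% with at least 10 RPM and 24.1% with no filter. Counts of hairpins and arms with larger 5p shares, shifted starts or longer tags otherwise stayed within 1.5 times under the alternatives run. Of 154 single-arm ratios under alternatives 151 stayed above 1, but only 86 lay within the counting interval of the main ratio. Both counts include ratios that could not change. Counting miR-292-5p tags with T at base 17 affects that arm alone. Leaving out tags that match more than 1 hairpin changed only miR-291a-5p and miR-291b-5p. The counting of miR-292-5p tags with T at base 17 was chosen after seeing the data. No paired analysis was possible because each condition has 1 library. Depth limits miR-290a-3p and miR-291b-3p the most, and a floor of 3 reads is 0.159 and 0.142 RPM.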
